A study of Mus musculus with 23 samples.

Results

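The miR-200 and miR-141 family of the mouse liver is described here by its mature miRNAs, which are miR-200b, miR-200a and miR-429 of a cluster on chromosome 4 and miR-200c and miR-141 of a cluster on chromosome 6. The members were chosen by name, as 8 mature miRNAs (mmu-miR-200b-3p, mmu-miR-200b-5p, mmu-miR-200a-3p, mmu-miR-200a-5p, mmu-miR-429-3p, mmu-miR-200c-3p, mmu-miR-200c-5p and mmu-miR-141-3p, written below without the mouse prefix), and all 8 were found among the 1218 mature miRNAs of the deposited count table. Small RNA of whole liver was sequenced in 23 C57bl/6J male mice of the F3 generation, 1 library per mouse. The study asked how the diet and a fatty acid given to the earlier generations bear on liver miRNAs.

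The reference group (STD_Cont, 8 mice) came from the control lineage, bred with high oleic sunflower oil added to the growing diet, and was then fed a low-fat diet. The HFoleic group (HFD_Cont, 8 mice) came from that same control lineage and was fed a high-fat, high-sucrose diet. The HFepa group (HFD_O3, 7 mice) came from the omega 3 lineage, bred with a fish oil rich in eicosapentaenoic acid (EPA), and was fed the same high-fat, high-sucrose diet. HFoleic vs. reference thus differs by diet, HFepa vs. HFoleic by lineage, and HFepa vs. reference by both. The ages of the mice and their relation within a lineage were not given in the sources used here.

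The miR-200 family is a classical set of miRNAs of epithelial cells. Its members repress Zeb1 and Zeb2, transcription factors that shut off E-cadherin, and so help cells to keep their epithelial state. In liver they are known mainly from the cells that line the bile ducts, while hepatocytes, the bulk of the organ, hold little of them. The family is found in other epithelia too, among them those of gut, pancreas and kidney, so its level in whole liver is not specific to 1 cell type.

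A miRNA finds its targets mostly through its seed, bases 2 to 8 from the 5′ end, and the seed sorts the members into groups. The mature sequences of all 8 members (RefSeq, GRCm38.p6) are shown because the results below turn on members that differ by a few bases. They are written 5′ to 3′ with the seed in capitals, first the 3 members with the seed AAUACUG, then the pair with AACACUG, then the -5p arms.
miR-200b-3p: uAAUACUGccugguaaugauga
miR-429-3p: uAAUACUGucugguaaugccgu
miR-200c-3p: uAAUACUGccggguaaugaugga
miR-200a-3p: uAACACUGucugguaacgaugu
miR-141-3p: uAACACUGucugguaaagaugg
miR-200b-5p: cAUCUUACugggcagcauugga
miR-200a-5p: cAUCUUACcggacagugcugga
miR-200c-5p: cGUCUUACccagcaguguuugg

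No mouse mature miRNA of the RefSeq table outside the family carried either of the -3p seeds. Each of these -3p seeds was carried by members of both chromosomes. Counted from the 5′ end, miR-200c-3p differed from miR-200b-3p by U11G and A22G and was 1 base longer. The pair with the other seed, miR-200a-3p and miR-141-3p, differed by C17A and U22G. Between miR-200b-3p and miR-429-3p, neighbours in the same cluster with the same seed, there were 4 differences (C9U, A19C, U20C and A22U). The seeds themselves differ at a single base, which is U4C from miR-200b-3p to miR-200a-3p. The authors' alignment allowed mismatches, so the division of reads between members that differ by 2 bases is uncertain.

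The chromosome 4 cluster spans chr4:156053905-156055750 on the minus strand (GRCm38.p6), with Mir200b, Mir200a and Mir429 in the order of transcription. All 3 hairpins lie in introns of Ttll10, a protein-coding gene on the same strand. They also lie within the non-coding transcript Gm13648, where Mir429 overlaps an exon and the other two lie in introns. The chromosome 6 cluster spans chr6:124717914-124718390, also on the minus strand, between Phb2, 964 bases away, and Ptpn6, 2317 bases away. Its hairpins Mir200c and Mir141 lie in an intron of the antisense RNA Gm15884, and Mir141 overlaps an exon of the unverified transcript Gm29008. The hairpins of miR-200b and miR-429, whose ratio is followed library by library further on, are shown with the mature members in capitals, at chr4:156055681-156055750 for Mir200b and chr4:156053905-156053987 for Mir429, both on the minus strand.
Mir200b: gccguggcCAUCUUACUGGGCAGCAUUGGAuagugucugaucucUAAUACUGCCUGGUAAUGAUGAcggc
Mir429: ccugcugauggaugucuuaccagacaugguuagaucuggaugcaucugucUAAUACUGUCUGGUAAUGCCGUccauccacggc

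Library totals lay between 3725432 and 8139344 counts, lowest in the HFepa group (3725432 to 4947990) and highest in the reference group (5242218 to 8139344). Levels are given as CPM, the count of a miRNA relative to the library total, which was scaled by a TMM factor that evens out differences in composition. Hepatocyte miRNAs were abundant in every library: the summed level of 5 of them, which include miR-122-5p and miR-192-5p, lay between 188000 and 357600 CPM. The largest part was miR-192-5p, at 98100 CPM or more in each library, while miR-122-5p lay between 10800 and 22880 CPM. Reference library 3, which had the lowest sum, stood apart from the other reference libraries in the family as well. Each result that rests on the reference group is therefore given with and without it. Reference libraries 4 and 5 stood high in lists of miRNAs of other tissues. Library 4 reached 2304 CPM in the intestine list and 219 CPM in the muscle list, and library 5 reached 2021 CPM in the pancreas list. Most of each sum was 1 miRNA: miR-215-5p (1885 CPM) and miR-133a-3p (205 CPM) in library 4, and miR-375-3p (2020 CPM) in library 5. The other miRNAs of the pancreas list reached at most 0.893 CPM in any reference library. Of the members, 6 passed the filter on low counts and were tested among 386 miRNAs, and miR-200b-5p and miR-200c-5p did not pass.

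miR-200b-3p was the most abundant member in 23 of 23 libraries. It ranked 129th of 1218 miRNAs by its mean level and carried 40.2% of the family's counts (13678 of them over all libraries). The mean level over all libraries was 107 CPM for miR-200b-3p, 54.9 CPM for miR-200a-3p, 48.0 CPM for miR-429-3p and 44.2 CPM for miR-141-3p. The order of neighbours was firm at the top and loose below it: miR-200a-3p lay above miR-429-3p in 18 of 23 libraries, and miR-429-3p above miR-141-3p in 12 of 23. The efficiency of adapter ligation differs between miRNAs, so these levels order the reads and not strictly the molecules.

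miR-200c-3p lay far below its cluster partner miR-141-3p, with a mean of 4.29 CPM, and below it in 23 of 23 libraries. The -5p arms were scarce. miR-200a-5p had a mean of 2.83 CPM (376 counts in all), miR-200b-5p 0.855 CPM (109 counts), and miR-200c-5p had 3 counts over all libraries. With a total of 0 counts in most libraries, no level or difference of miR-200c-5p was measurable at this depth. The share of miR-200a-5p among the reads of both miR-200a arms lay between 3.704% and 8.0% in the reference group, between 3.05% and 6.47% in HFoleic, and between 0% and 7.41% in HFepa. The value of 0% was 0 of 138 counts in HFepa library 18, which allows a share of up to 2.17% by counting error alone. The groups overlapped in this share.

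The chromosome 4 cluster gave most of the family's reads in every library, 80.0% to 87.9% in the reference group, 74.6% to 85.1% in HFoleic and 71.7% to 84.5% in HFepa. Members with the seed AAUACUG made up 52.3% to 66.2% of the counts of the -3p members over all groups.

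**Figure D1:**
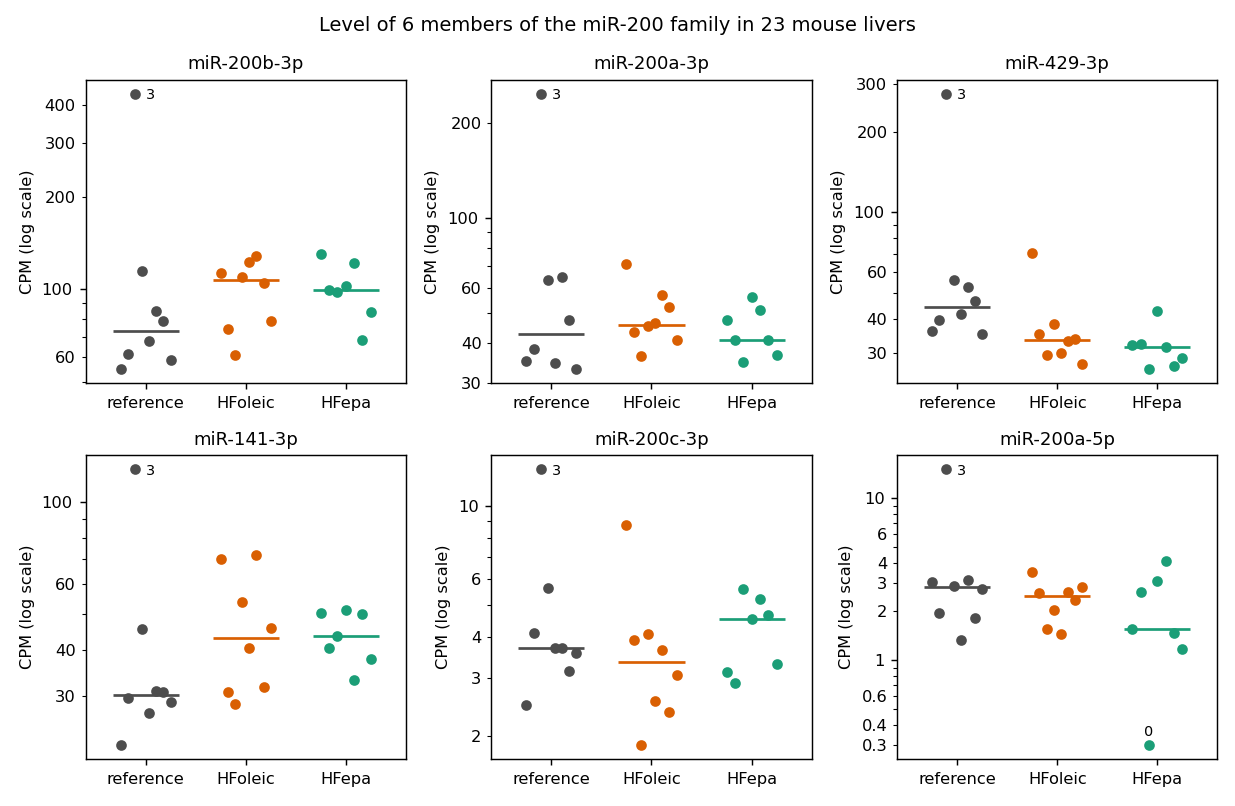
Level of the 6 tested members in each mouse liver, as CPM on a log axis, with 1 point per library and a line at the group median; reference library 3 is marked, and an HFepa library with 0 counts of miR-200a-5p is drawn at the bottom and marked 0. Library 3 is the highest of all 23 libraries in each panel, at 435 CPM for miR-200b-3p and 277 CPM for miR-429-3p.

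The family was several-fold higher in reference library 3 than in any other library. Its summed level was 1114 CPM (7686 counts), against 154 to 289 CPM with a median of 177 CPM in the other 7 reference libraries, a ratio of 6.29 to that median. In HFoleic the sum lay between 159 and 337 CPM with a median of 236 CPM, and in HFepa between 193 and 266 CPM with a median of 219.9 CPM. Apart from library 3 the 3 groups overlapped.

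Members of both clusters were high in that library. In the chromosome 4 cluster, miR-200b-3p stood at 435 CPM, 6.42 times the median of the other reference libraries, miR-200a-3p at 247 CPM or 6.46 times, and miR-429-3p at 277 CPM or 6.62 times. On chromosome 6, miR-141-3p stood at 122 CPM, 4.12 times that median, and miR-200c-3p at 12.9 CPM, 3.49 times. Both -5p arms of chromosome 4 followed, with miR-200a-5p at 15.1 CPM or 5.47 times and miR-200b-5p at 4.20 CPM against 0 to 1.20 CPM in the others. The exception was miR-200c-5p, at 0 counts in library 3.

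Among all 386 tested miRNAs ranked by the excess of library 3 over the median of the other reference libraries, miR-429-3p was 10th, miR-200a-3p 11th and miR-200b-3p 12th. miR-200a-5p was 22nd, miR-141-3p 27th and miR-200c-3p 39th. The first was miR-582-3p, at 193 CPM against a median of 4.56 CPM, so the family was not the only set of miRNAs that stood out in this library. The TMM factor of library 3 was 1.26.

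Lists of miRNAs of other cell types moved in library 3 too. The hepatocyte list stood at 188000 CPM, below the 292800 to 338500 CPM of the other reference libraries, a ratio of 0.587 to their median. All 6 stellate cell and fibroblast miRNAs were highest in library 3 within the reference group, and their sum was 42530 CPM against 23450 to 33230 CPM. Of 6 leukocyte miRNAs, 5 were highest there, with a sum of 3557 CPM against 1760 to 2800 CPM. The sums of the 2 endothelial and the 3 red blood cell miRNAs were below those of all other reference libraries, at 0.736 and 0.610 times their medians. The pancreas, intestine and muscle lists of library 3 lay within the range of the others, at 20.6, 718 and 7.97 CPM, and none of the markers was at 0 in all libraries. For the intestine list this held only through library 4 at 2304 CPM, and the next of the others was library 6 at 498.8 CPM.

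The nearest list in kind held 9 epithelial miRNAs beside the members, such as miR-203-3p and the miR-183, miR-96 and miR-182 cluster. It also held miR-141-5p and miR-429-5p, the other arms of the hairpins Mir141 and Mir429, so it was not wholly outside the family. miR-429-5p had 0 counts in every reference library. The list summed to 4646 CPM in library 3. The other reference libraries lay between 3490 and 5035 CPM, so the sum of this list in library 3 was within their range. Only library 5 lay above library 3, and miR-375-3p alone stood at 2020 CPM there. The next highest of the others was library 8 at 4195 CPM. Of the 9 miRNAs of the list, 6 were highest in library 3 within the reference group. Among them were miR-141-5p and miR-182-5p, the latter at 3151 CPM where the reference median was 1706 CPM. miR-203-3p was lowest there, at 647 CPM where the reference median was 1672 CPM. The sum of the list thus joins values that went in opposite directions. In bulk tissue, fewer cells of a type and less RNA per cell cannot be told apart, and the part of these lists in the level of the family was not tested.

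**Figure D2:**
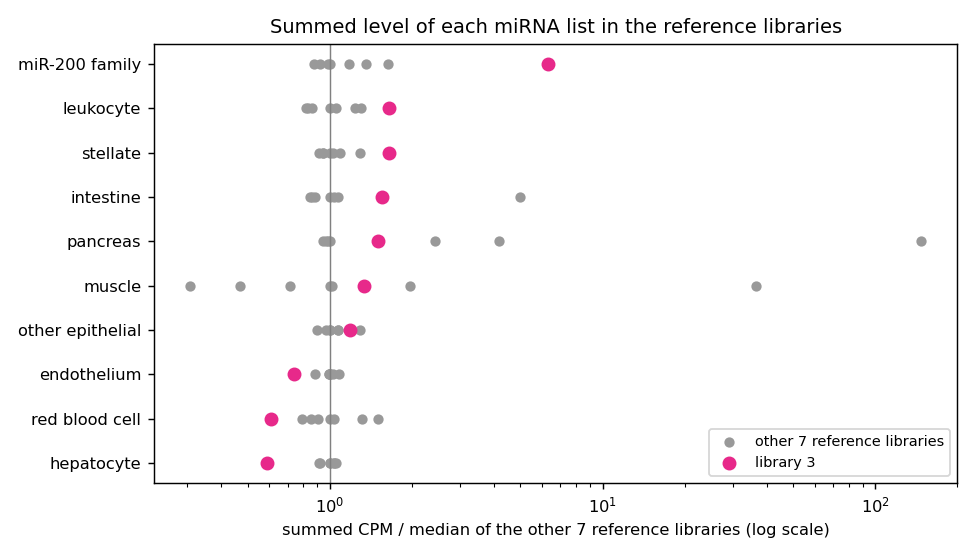
Summed CPM of the family and of 9 lists of cell type or tissue miRNAs in each reference library, divided by the median of the 7 reference libraries other than library 3, on a log axis. Library 3 has the highest sum for the family (6.29), the stellate list (1.65) and the leukocyte list (1.65) and the lowest for the hepatocyte list (0.587), while libraries 4 and 5 hold the highest intestine, muscle and pancreas sums.

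The question of HFoleic vs. reference was whether the high-fat diet alone moved the family. Of 6 tested members 0 were called, where 12.4% of all 386 tested miRNAs were (edgeR quasi-likelihood test with Benjamini-Hochberg adjustment over all tested miRNAs, called at an adjusted p under 0.05 and a log2 fold change over 0.25 in size). DESeq2 called 0 as well, and 25 of all 386. Its log2 fold changes with all libraries were 0.35 for miR-200b-3p and -0.22 for miR-429-3p, where edgeR gave -0.28 and -0.97. For this pair they lay near the DESeq2 values without library 3 (0.39 and -0.26), so they add little to those. For the other tested members DESeq2 lay near edgeR with all libraries. At an unadjusted p under 0.05 the count was 1 of 6 members, miR-429-3p, against 28.5% of all tested miRNAs. Without library 3 it was 2 of 6 members, beside 105 of 385 tested miRNAs. Those 2 were miR-200b-3p and miR-141-3p, both higher in HFoleic, where miR-429-3p had been lower. In direction, 5 of 6 log2 fold changes were negative, with a median of -0.45 beside 0.00 over all tested miRNAs, and without library 3 that median was 0.07.

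miR-429-3p was the member with the lowest unadjusted p. Its level lay between 35.3 and 277 CPM in the reference group with a median of 44.4 CPM, and between 27.3 and 70.7 CPM in HFoleic with a median of 33.6 CPM. The groups overlapped, although 6 of 8 HFoleic libraries lay below the whole reference group. The log2 fold change was -0.97 (SE 0.36, edgeR adjusted p = 0.0885), and it was -0.24 (SE 0.17, adjusted p = 0.409) without library 3. Without HFoleic library 9, the highest of its group, miR-429-3p was called (log2 fold change -1.17, edgeR adjusted p = 0.0385), among 53 calls of 383 tested miRNAs.

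miR-141-3p of the chromosome 6 cluster lay between 22.14 and 122 CPM in the reference group with a median of 30.2 CPM. In HFoleic it lay between 28.6 and 72.0 CPM with a median of 43.0 CPM. The medians thus differed upwards while the ranges overlapped, and the log2 fold change was 0.14 (SE 0.30, edgeR adjusted p = 0.779). Without library 3 the reference range narrowed to 22.14 to 45.55 CPM, the log2 fold change was 0.60 (SE 0.20, edgeR adjusted p = 0.0448), and miR-141-3p was called, the only call among 6 members where 11.4% of 385 tested miRNAs were called. That call was not made in other fits without library 3, although the log2 fold change stayed near that size. It was 0.58 with DESeq2 (adjusted p = 0.0514, 23 of 385 miRNAs called) and 0.57 with library size in place of TMM factors (edgeR adjusted p = 0.0716, 41 of 385 called). It was 0.50 with a term for the library number, split into 1 to 11 and 12 to 23 (edgeR adjusted p = 0.466). In libraries 1 to 11 alone it was 0.49 (edgeR adjusted p = 0.470). Both of these fits called 0 of all tested miRNAs.

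The remaining members showed no call in either fit. miR-200b-3p lay between 54.8 and 435 CPM in the reference group with a median of 73.4 CPM and between 60.9 and 128 CPM in HFoleic with a median of 107 CPM. Its log2 fold change was -0.28 (SE 0.35, edgeR adjusted p = 0.640), and 0.41 (SE 0.17, edgeR adjusted p = 0.133) without library 3, so its sign changed when that library was left out. The log2 fold changes of miR-200a-3p, miR-200c-3p and miR-200a-5p were -0.52, -0.38 and -0.76 with all libraries, and 0.12, 0.01 and -0.02 without library 3.

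For HFepa vs. reference, where diet and lineage both differ, 1 of 6 tested members was called, beside 15.8% of all tested miRNAs. At an unadjusted p under 0.05 it was also 1 of 6, beside 28.5%. The median log2 fold change of the members was -0.46, against -0.06 over all tested miRNAs, and without library 3 it was 0.06.

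The member called was miR-429-3p. In HFepa it lay between 26.1 and 42.8 CPM with a median of 31.5 CPM, and 6 of 7 HFepa libraries lay below the lowest reference library at 35.3 CPM. Its log2 fold change was -1.22 (SE 0.38, 95% interval -2.01 to -0.42, edgeR adjusted p = 0.0340). The size of this difference rested on library 3: without it the log2 fold change was -0.48 (SE 0.18, 95% interval -0.86 to -0.10), the edgeR adjusted p was 0.0750, and 0 of 6 members were called where 14.3% of 385 tested miRNAs were (DESeq2 without library 3 called 0 members and 42 of 385 miRNAs). In that edgeR fit 3 of 6 members had an unadjusted p under 0.05, beside 112 of 385 tested miRNAs. The call was also lost without any single one of the HFepa libraries 16, 17, 18, 20, 21 and 22, with edgeR adjusted p between 0.0545 and 0.0651, while the log2 fold change stayed between -1.24 and -1.16. Those fits called 32 to 44 of all tested miRNAs. A fit with a term for library numbers above 11 gave a log2 fold change of -0.75 (edgeR adjusted p = 0.841), and 0 of all 386 tested miRNAs were called. All HFepa libraries are numbered above 11 and all reference libraries below 12. Only HFoleic has libraries on both sides, so the size of that term rests on HFoleic.

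The members beside it were not called. miR-200b-3p lay between 68.2 and 131 CPM in HFepa with a median of 99.6 CPM and overlapped the reference group. Its log2 fold change was -0.25 (SE 0.36, edgeR adjusted p = 0.726) with all libraries and 0.44 (SE 0.18, edgeR adjusted p = 0.0989) without library 3. miR-141-3p lay between 33.1 and 51.2 CPM with a median of 43.5 CPM, and its log2 fold change went from 0.05 to 0.51 (SE 0.20, edgeR adjusted p = 0.0862) when library 3 was left out. So miR-429-3p and miR-200b-3p, which share a cluster and a seed, had log2 fold changes of opposite sign against the other 7 reference mice, and neither was called.

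miR-200a-3p was at 34.9 to 56.2 CPM in HFepa, with a log2 fold change of -0.68 (edgeR adjusted p = 0.204) and of -0.03 without library 3. miR-200c-3p was at 2.89 to 5.57 CPM, with a log2 fold change of -0.24 and of 0.15 without library 3. miR-200a-5p was at 0 to 4.08 CPM, with a log2 fold change of -0.997 and of -0.26 without library 3. HFoleic vs. reference and HFepa vs. reference share the same reference mice, library 3 among them, so their values are not independent of each other.

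HFepa vs. HFoleic asks for the lineage on the high-fat diet. It does not involve the reference group, apart from the shared estimate of spread. Of 6 members 0 were called, and of all tested miRNAs 0% were. At an unadjusted p under 0.05 there were 0 of 6 members and 5.7% of all tested miRNAs, and DESeq2 called 0 members. The log2 fold changes of the members lay between -0.24 and 0.14, with adjusted p of 0.968 or more. Without library 3 the 95% interval was -0.33 to 0.39 for miR-200b-3p, -0.50 to 0.31 for miR-141-3p and -0.61 to 0.12 for miR-429-3p, and again 0% of all tested miRNAs were called. The widest of the members was that of miR-200a-5p, at -1.01 to 0.54. With all libraries the interval was -1.325 to 0.853 for miR-200a-5p and -1.02 to 0.54 for miR-429-3p. These intervals leave room for differences of up to those sizes.

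**Figure D3:**
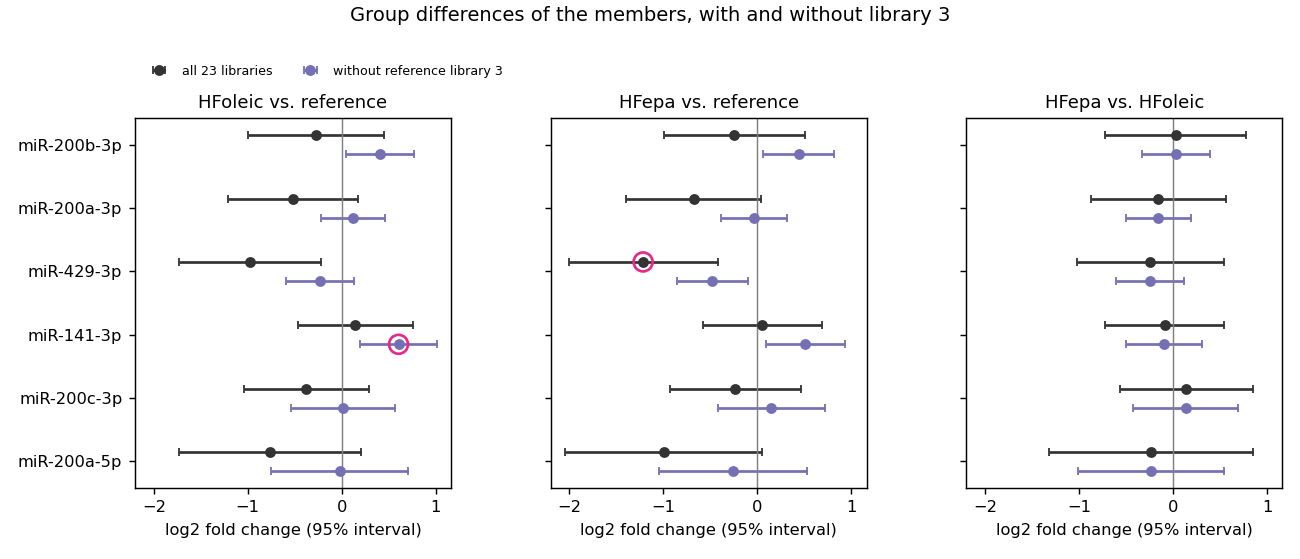
Log2 fold change of the 6 tested members in each comparison with its 95% interval (edgeR), from all 23 libraries and from 22 libraries without reference library 3; rings mark the called members. miR-429-3p in HFepa vs. reference is called with all libraries (-1.22) and miR-141-3p in HFoleic vs. reference is called without library 3 (0.60). In HFepa vs. HFoleic no member is called and the estimates with all libraries lie between -0.24 and 0.14, with wide intervals for some members.

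Ratios of counts between members of 1 library do not depend on the library total or on TMM factors, and they are given as descriptions. The 3 members of the chromosome 4 cluster did not keep a fixed ratio. miR-429-3p to miR-200b-3p lay between 0.489 and 0.662 in the reference group with a median of 0.618, between 0.245 and 0.627 in HFoleic with a median of 0.349, and between 0.247 and 0.419 in HFepa with a median of 0.325. Reference and HFepa did not overlap in this ratio, and library 3, at 0.636, was inside the reference range although both of its levels were far outside theirs.

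The same ratio also ran with the library number. The titles number the reference libraries 1 to 8, HFoleic 9 to 15 and 23, and HFepa 16 to 22. HFoleic libraries 9 to 11 had ratios of 0.475 to 0.627, close to the reference range, and HFoleic libraries 12 to 15 and 23 had 0.245 to 0.351, within or next to the HFepa range. Within 1 diet and lineage, the ratio thus fell into 2 ranges that did not overlap, and these ran with the library number. The labels do not say what the number stands for, all HFepa libraries are numbered above 11 and all reference libraries below 12, so for HFepa vs. reference the number and the group cannot be told apart within either range.

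Fits were also made within those ranges. With libraries 1 to 11 alone, the log2 fold change of miR-429-3p in HFoleic vs. reference was -0.67 (edgeR adjusted p = 0.745) with library 3 and 0.04 (edgeR adjusted p = 0.957) without it. With libraries 12 to 23 alone, it was -0.04 (edgeR adjusted p = 0.971) in HFepa vs. HFoleic. In the HFepa vs. reference fit with a term for the library number and without library 3 it was 0.00 (edgeR adjusted p = 0.993). In each of these fits 0 of all tested miRNAs were called.

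miR-200a-3p to miR-200b-3p had a similar shape with more overlap, at 0.510 to 0.764 in the reference group, 0.584 to 0.630 in HFoleic libraries 9 to 11, 0.379 to 0.522 in HFoleic libraries 12 to 15 and 23, and 0.357 to 0.603 in HFepa. In the pair with the seed AACACUG, miR-141-3p to miR-200a-3p lay between 0.477 and 0.878 in the reference group, between 0.609 and 1.27 in HFoleic and between 0.649 and 1.25 in HFepa. In the chromosome 6 pair, miR-141-3p to miR-200c-3p lay between 7.22 and 9.79 in the reference group, with higher values reached in HFoleic (7.85 to 19.7) and HFepa (6.35 to 16.1). In each of these ratios the ranges of the 3 groups overlapped, while for miR-200a-3p to miR-200b-3p both sets of HFoleic libraries did not overlap with each other.

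**Figure D4:**
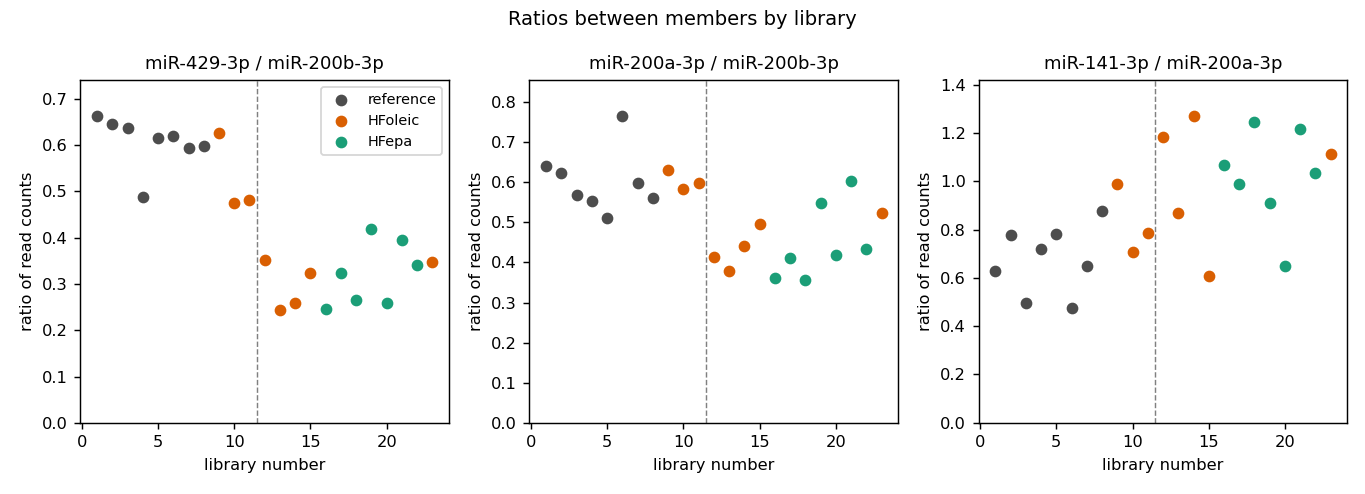
Ratio of read counts between members in each library, against the library number in the sample titles, coloured by group, with a dashed line between numbers 11 and 12. The ratio of miR-429-3p to miR-200b-3p is 0.475 or more in every library up to number 11 and 0.419 or less in every later one, including the HFoleic libraries on both sides.

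The members were compared with each other and with other miRNAs by Spearman's rho of log2 CPM over the 23 libraries. Libraries share their group, library number and scaling, so the values are descriptions. miR-200b-3p was most like miR-141-3p of the other chromosome among the members (rho 0.762, and 0.728 over the 22 libraries without library 3), then miR-200a-3p of its own cluster (0.746 and 0.710). It was much less like miR-429-3p of its own cluster and seed (0.147 and 0.025) and miR-200c-3p (0.307 and 0.208).

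Outside the family, the 3 tested miRNAs most like miR-200b-3p were miR-199a-5p (rho 0.747, and 0.711 without library 3), miR-23a-3p (0.666 and 0.618) and miR-145a-3p (0.664 and 0.685). For miR-141-3p they were miR-212-5p (0.682 and 0.636), miR-199a-5p (0.654 and 0.605) and miR-214-3p (0.606 and 0.549). miR-199a-5p and miR-214-3p also stand in the list of stellate cell and fibroblast miRNAs used above.

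Of 9 other epithelial miRNAs on the list, 7 were tested, and miR-141-5p and miR-429-5p were not. In HFoleic vs. reference and in HFepa vs. reference 1 of these 7 was called, lower in each case, a share near the 12.4% and 15.8% of all tested miRNAs, and in HFepa vs. HFoleic 0 were called. The miRNA called was miR-375-3p, a miRNA of pancreatic islets and other endocrine cells, and it was carried by reference library 5 at 2020 CPM where the reference median was 16.8 CPM. Without library 5 the list had 0 calls, where 12 and 36 of all 385 tested miRNAs were called, and the log2 fold changes of miR-375-3p were -0.32 (edgeR adjusted p = 0.560) in HFoleic and -0.62 (edgeR adjusted p = 0.240) in HFepa. Without libraries 4 and 5 the log2 fold change of miR-429-3p in HFepa vs. reference was -1.37 (edgeR adjusted p = 0.0387), and without libraries 3, 4 and 5 it was -0.45 (edgeR adjusted p = 0.172) and the call was lost.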

How the data were processed

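Small RNA libraries (TruSeq Small RNA kit) of 23 livers were grouped by the group, lineage and diet labels. Each mouse is 1 library and 1 replicate. The authors trimmed adapters with the FASTX-Toolkit, aligned reads with Bowtie in ncPRO-seq and deposited a raw read count for each mature miRNA of miRBase, without normalization. Of the genome, GRCm38.p6 and mm9 are both named in the methods, the submitters' processing notes name mm10 and bcl2fastq 2.17.1.14, and how reads that match several miRNAs were shared is not given in the sources used here. The table also holds 23 columns of counts divided by size factors, their group means, and the authors' fold changes and p-values, none of which was used.

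The 386 miRNAs that passed filterByExpr by group were fitted in 1 model of 3 groups with TMM factors and tested with edgeR's quasi-likelihood test (edgeR 4.0.16, R 4.3.3) with Benjamini-Hochberg adjustment over all of them. Calls needed an adjusted p under 0.05 and a log2 fold change over 0.25 in size. DEGseq, which the methods name, pools reads and was not run. The standard error is the size of the log2 fold change divided by the square root of F. Likeness used log2 CPM with a prior count of 2. Named miRNAs are all members, the 3 miRNAs most like the leading member of each cluster, and a list of other epithelial miRNAs. miR-582-3p and miR-375-3p were singled out after their values were seen. The members and lists were chosen with earlier results of these data known. No 2 libraries of a group agreed within sampling noise (chi-square per degree of freedom of at least 33.7 over 77 pairs). The scripts were tested on simulated data. Alternatives were DESeq2 1.42.0, limma 3.58.1 on quantile-normalized log2(CPM + 1), limma-voom with quality weights, other scaling, filters, subsets and call rules, and each library left out. The term for the library number has 2 levels, numbers 1 to 11 and 12 to 23, and is not the number itself. Sequences and hairpin positions come from RefSeq (GRCm38.p6) and overlapping genes from GENCODE. Figures were drawn with matplotlib 3.10.9. Library totals of 3725432 counts or more make the spread between mice, rather than counting error, the limit for the abundant members.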

Additional observations from a re-analysis of the deposited data

Results flagged for a closer look

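Of 35 sets of values examined (members, their sum and ratios within a group), 13 held a library far from the others of its group. For independent, normally distributed sets chance gives about 1 in 20, or 1.75 here. These sets share libraries and members, so the 13 are a description and no test against that number. Reference library 3 accounted for 8 of the 13. It was high at 435.3 CPM for miR-200b-3p (next highest reference library 114.6), 247.1 CPM for miR-200a-3p (64.88), 276.9 CPM for miR-429-3p (55.98), 122.3 CPM for miR-141-3p (45.55), 12.9 CPM for miR-200c-3p (5.634), 15.07 CPM for miR-200a-5p (3.123) and 4.202 CPM for miR-200b-5p (1.199), and 1114 CPM for the family's sum (289.3). These 8 values come from 1 library and are not separate events.

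HFoleic library 9 was high for miR-429-3p (70.67 CPM, next 38.45) and for miR-200c-3p (8.746 CPM, next 4.066). HFepa library 19 was high for miR-429-3p (42.84 CPM, next 32.32). HFoleic library 12 was the only one of its group with miR-200c-5p (0.1848 CPM, which is 1 count). A set with 1 value above 0 is always flagged by this rule. Reference library 4, which was also high in the intestine and muscle lists, was low in the ratio of miR-429-3p to miR-200b-3p (0.4885, next 0.5941).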

How the results depend on the processing

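The count of called members in HFepa vs. reference, 1 with all libraries, was 0 with DESeq2, with quantile normalization and limma, with no filter, with only the groups compared, with a term for library number, and in the 4 alternatives without library 3 that were added after seeing the data. Over all tested miRNAs, those first 5 settings called 46 of 386, 28 of 386, 43 of 1218, 40 of 373 and 0 of 386. With no filter and with only the groups compared, the log2 fold change of miR-429-3p was about as large as before (-1.2312 and -1.2018). The count was 1 under the other 7 planned settings, which called 30 to 69 of all tested miRNAs. It was 0 to 1 when each library was left out, where 32 to 66 of all tested miRNAs were called. In HFoleic vs. reference it was 0 under all settings and 0 to 1 when each library was left out, and in HFepa vs. HFoleic 0 throughout. Some settings of HFoleic vs. reference called few miRNAs at all: 7 of 371 with only the groups compared and 1 of 386 with the library number term. It was 0 of 409 in libraries 1 to 11 alone and 6 of 387 without libraries 4 and 5. The other planned settings called 13 to 52 miRNAs, and the fits with each library left out 12 to 53. Of the refitted log2 fold changes of single members, 603 kept direction and call, 61 changed sign, 15 lost a call and 2 gained 1. No paired analysis was made, because the groups are different mice and the labels do not match a mouse of 1 group to a mouse of another.

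The sign changes lay mostly with library 3. In HFoleic vs. reference, miR-200b-3p had 0.3457 with DESeq2, 0.1373 with quantile normalization and limma and 0.3578 with limma-voom. With library 3 left out it had 0.1643 with a term for library number, 0.1564 in libraries 1 to 11 alone, 0.5009 without libraries 4 and 5, 0.3854 with DESeq2 and 0.3726 with library size in place of TMM. miR-200a-3p had 0.0577 with limma-voom and, in those 5 fits without library 3, 0.1695, 0.1588, 0.1265, 0.0949 and 0.0832. In the first 2 of these fits, with the library number term and with libraries 1 to 11 alone, miR-200a-5p had 0.0886 and 0.0761, miR-429-3p 0.0461 and 0.0380, and miR-200c-3p 0.3632 and 0.3560, and miR-200c-3p had 0.1252 without libraries 3, 4 and 5. miR-141-3p had -0.0100 with library size.

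In HFepa vs. reference, miR-200b-3p had 0.3970 with DESeq2, 0.2354 with quantile normalization and limma and 0.3469 with limma-voom. Without library 3 it had 0.0615 with the library number term, 0.5448 also without libraries 4 and 5, 0.4388 with DESeq2 and 0.4174 with library size. miR-200a-3p had 0.0423 and miR-429-3p 0.0041 with the term and without library 3. miR-200c-3p had 0.0127 with quantile normalization and limma, 0.1595 with limma-voom, 0.3734 with the term, and 0.7724, 0.2707, 0.1482 and 0.1260 in the same 4 fits without library 3. miR-141-3p had -0.0873 with library size, -0.1238 with the term and -0.0140 without libraries 4 and 5. In HFepa vs. HFoleic, miR-200b-3p had -0.0109 with limma-voom, -0.1100 with the term, -0.1031 in libraries 12 to 23 alone and -0.1028 with the term and without library 3. There miR-141-3p had 0.0516 with quantile normalization and limma and 0.0401 with limma-voom.

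With each library left out in turn, the log2 values for HFoleic vs. reference ranged from -0.4087 to 0.4101 for miR-200b-3p, from -0.6479 to 0.1230 for miR-200a-3p and from -0.6788 to 0.0138 for miR-200c-3p. In HFepa vs. reference they ranged from -0.3500 to 0.4373 for miR-200b-3p, from -0.3125 to 0.1489 for miR-200c-3p, from -0.0301 to 0.5100 for miR-141-3p and from -1.3090 to -0.4805 for miR-429-3p. In HFepa vs. HFoleic they ranged from -0.0503 to 0.1345 for miR-200b-3p and from -0.1759 to 0.0344 for miR-141-3p. Against the reference group, sign changes of miR-200b-3p, miR-200a-3p and miR-200c-3p in these fits came without library 3 only, and those of miR-141-3p in HFepa without library 1 or 5. Beyond the library left out, the cause was not tested. miR-200c-5p, with 0 or 1 count in each library, is beyond the depth reached here.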
